A study of Mus musculus with 9 samples.

Results

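The cholesterol biosynthesis and SREBP genes are 28 genes found by symbol in the table of counts, out of 45361 gene identifiers. They were grouped by pathway step. The groups are 2 genes of entry to the mevalonate pathway, 6 from mevalonate to isoprenoids, 3 of squalene and its cyclisation, 8 from lanosterol to cholesterol, 5 of SREBP and its sterol sensing, and 4 of sterol transport and storage. All 28 passed the filter on low counts, which left 12580 genes to test. They were chosen by pathway and symbol, with no threshold on a measured value, but with earlier results of these data known. The question here was how their transcripts differed between DMSO, tazemetostat and valemetostat, and between the compounds themselves.

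The cells were CH12F3, a line of mouse B-lymphoma cells used to study antibody class switching. Every group carried a Ligase4 knockout, which removes the ligase of classical end joining, and every group had been stimulated over 24 h by anti-CD40 with TGF-β and IL-4. The first group had DMSO, the solvent control, the second tazemetostat and the third valemetostat, with 3 libraries in each. Tazemetostat inhibits EZH2, the methyltransferase of lysine 27 of histone H3, and valemetostat inhibits EZH2 and its relative EZH1. The labels give no dose, no length of inhibitor exposure and no clone number, and do not say whether the libraries of a group came from separate cultures, so the spread behind the p-values may be technical. Any difference between the compounds is a difference between libraries as labelled, at doses that are not known here.

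Cholesterol is built from acetyl-CoA through mevalonate, isoprenoids, squalene and lanosterol. The transcription factors SREBP1 and SREBP2 are made as precursors in the membrane of the endoplasmic reticulum, where SCAP escorts them to the Golgi for cleavage when sterols are low and INSIG proteins hold them back when sterols are high. Cleaved SREBP2 is known to activate most genes of the pathway, including INSIG1, and dividing B cells need the products for membranes and for protein prenylation.

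Library totals ran from 34080504 to 46675110 counts. All 8 B cell markers looked for were detected, at a summed 2860 to 3130 CPM (counts on a common library size, scaled by TMM) with DMSO, 3340 to 3360 with tazemetostat and 3420 to 3580 with valemetostat. Of these 8, 4 rose and 0 fell with each compound, where 19.9% and 20.5% of all tested genes rose with tazemetostat and valemetostat. The 6 T cell markers summed to 1.77 to 2.52 CPM with DMSO, 3.33 to 3.59 with tazemetostat and 2.35 to 4.25 with valemetostat, and 0 of the 5 tested were called. The 6 myeloid markers summed to 29.9 to 33.3, 29.7 to 33.7 and 27.6 to 30.8 CPM in the same order, with Cd14 at 10 counts or fewer over the 9 libraries. Of the 4 myeloid markers tested, 2 rose and 1 fell with each compound. Erythroid markers summed to 3.94 to 4.74 CPM with DMSO, 7.82 to 8.54 with tazemetostat and 6.55 to 7.51 with valemetostat. Of the 2 erythroid markers tested, 2 rose with tazemetostat and 1 with valemetostat. Stromal, endothelial and epithelial markers summed to 2.61 to 4.61, 3.2 to 5.89 and 4.01 to 5.14 CPM in the same order, and 0 of the 4 tested were called. The part of these markers in the results was not tested. Spearman's rho across genes between transcript length and a gene's deviation from its mean lay at 0.209 to 0.492 for DMSO, at -0.452 to -0.00924 for tazemetostat and at -0.463 to -0.236 for valemetostat. The median transcript length of the members, 3163 nt, lay near the 2989.5 nt of all tested genes, and a fit with a length and GC offset is given beside the counts below.

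Promoter windows from RefSeq, on GRCm38.p6 and running from 250 bases before to 50 after a start site, were held for 23 members. Fdps, Fdft1, Sqle, Stard4 and Npc1 had none. Shown are the window of Hmgcs1, the member whose window held the core of the sterol regulatory element, those of Lss and Insig1, which had the lowest levels relative to DMSO, and that of Soat1, which had the highest. Capitals mark TCACNCCAC (the sterol regulatory element core), CCAAT (the box bound by NF-Y, read as ATTGG on the other strand) or CACGTG (an E-box).
Hmgcs1, chr13:119690101-119690400, plus strand: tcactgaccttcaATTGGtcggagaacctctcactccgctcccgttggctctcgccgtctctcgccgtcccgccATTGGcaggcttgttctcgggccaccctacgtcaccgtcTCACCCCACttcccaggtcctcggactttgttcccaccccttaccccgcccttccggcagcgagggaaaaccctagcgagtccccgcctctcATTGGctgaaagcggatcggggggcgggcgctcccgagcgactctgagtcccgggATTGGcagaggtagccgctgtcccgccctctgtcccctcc
Lss, chr10:76531355-76531654, plus strand: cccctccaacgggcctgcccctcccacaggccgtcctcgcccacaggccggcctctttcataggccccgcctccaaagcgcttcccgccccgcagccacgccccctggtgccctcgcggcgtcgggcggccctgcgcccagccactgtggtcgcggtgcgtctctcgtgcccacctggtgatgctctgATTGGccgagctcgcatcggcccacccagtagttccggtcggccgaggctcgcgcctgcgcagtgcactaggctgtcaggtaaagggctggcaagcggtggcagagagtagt
Insig1, chr5:28071162-28071461, plus strand: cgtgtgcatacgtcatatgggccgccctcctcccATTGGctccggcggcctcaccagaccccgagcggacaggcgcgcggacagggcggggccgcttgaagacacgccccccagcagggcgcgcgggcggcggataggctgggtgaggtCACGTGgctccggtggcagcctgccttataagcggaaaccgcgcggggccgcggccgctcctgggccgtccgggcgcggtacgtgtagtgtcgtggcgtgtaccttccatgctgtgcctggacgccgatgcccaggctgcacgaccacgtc
Soat1, chr1:156474279-156474578, minus strand: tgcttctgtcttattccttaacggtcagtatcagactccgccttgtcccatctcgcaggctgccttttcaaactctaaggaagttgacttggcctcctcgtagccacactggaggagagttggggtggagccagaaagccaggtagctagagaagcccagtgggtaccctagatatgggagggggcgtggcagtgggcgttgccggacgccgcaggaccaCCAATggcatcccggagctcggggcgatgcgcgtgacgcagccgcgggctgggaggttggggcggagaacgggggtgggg
Counted from 1 at the 5′ end of the window, the Hmgcs1 element spans bases 114 to 122, and CCAAT stands on the opposite strand at bases 14, 75, 206 and 261. Lss and Soat1 have a single CCAAT each, from base 189 on the opposite strand and from base 221 on the same strand. Insig1 has CCAAT from base 35 and an E-box from base 150.

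Searched on both strands, CCAAT was found in the windows of 21 of 23 members, all but Acat2 and Scap. The share was 43.4% of the 9529 tested genes with a window and 37.4% of all windows. Restricted to genes with 1 window each, it was 17 of 18 members and 40.2% of 7579 tested genes. TCACNCCAC was found in 1 of 23 members (1.4% of tested genes, 1.24% of all windows). CACGTG was found in 5 of 23, namely Hsd17b7, Sc5d, Dhcr7, Scap and Insig1 (11.6% of tested genes, 7.15% of all windows). The motifs share no bases in the windows printed. A match describes letters in these windows and no binding was measured.

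The pathway was expressed at high level. On the TPM scale, which corrects for transcript length, the median member stood at 62.4 with DMSO against 15.8 for all tested genes. The highest were Fdps (388 ± 10.3 TPM, SD, n = 3), Idi1 (279 ± 17.5 TPM) and Cyp51 (214 ± 12.7 TPM). Srebf2 followed at 198 ± 10.3 TPM, above Srebf1 at 61.8 ± 2.88 TPM. Soat1 (8.84 ± 1.83 TPM) and Tm7sf2 (12.4 ± 0.406 TPM) were the lowest.

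Relative to DMSO, most enzyme genes stood lower with valemetostat and fewer did with tazemetostat. Of the 19 enzyme genes of the first 4 steps, 18 had a log2 change below 0 with valemetostat and 14 with tazemetostat. Of all 12580 tested genes, 6162 were below 0 with valemetostat and 6271 with tazemetostat. Of the 19, 9 fell with valemetostat and 0 rose, at a median log2 change of -0.17. With tazemetostat 3 fell (Acat2, Sqle and Lss) and 2 rose (Cyp51 and Hsd17b7), at a median of -0.07. Of all tested genes, 18.7% fell and 20.5% rose with valemetostat, and 18.2% fell and 19.9% rose with tazemetostat. The median over all tested genes was 0.01 with valemetostat and 0.00 with tazemetostat. All changes were small: Insig1, the member furthest below DMSO, fell by 22.5% with valemetostat, and Soat1, the member furthest above it, rose by 27.2% with tazemetostat. In bulk RNA, fewer cells with a transcript and less of it per cell cannot be told apart.

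Counted over the 28 members, 11 fell (39.3%) and 3 rose (10.7%) with valemetostat, by edgeR's quasi-likelihood F test at a Benjamini-Hochberg adjusted p under 0.05. Of all tested genes, 18.7% fell and 20.5% rose in that comparison. Here and below, shares over all tested genes were not matched for expression level. The median member stood at 62.4 TPM with DMSO against 15.8 for all tested genes, and small changes pass more readily at high counts. With tazemetostat 4 members fell (14.3%) and 6 rose (21.4%), against 18.2% and 19.9% of all tested genes, so the members' shares were near the background. Members below 0 in log2 change numbered 22 of 28 with valemetostat and 17 of 28 with tazemetostat, whether called or not. Among all 12580 tested genes the numbers were 6162 and 6271. Both comparisons share the DMSO libraries. The split moved with the scale. Limma on the deposited log2(TPM + 1) values gave 8 lower (28.6%) and 0 higher members with tazemetostat, against 15.5% and 9.36% of all tested genes. With valemetostat it gave 15 lower (53.6%) and 0 higher, against 16.8% and 9.47%. Scaling by library totals gave 7 lower (25%) and 3 higher (10.7%) members with tazemetostat, against 21% and 17.8%. With the length and GC offset, 8 members fell (28.6%) and 7 rose (25%) with tazemetostat, against 19% and 19.3% of all tested genes. The reading of the tazemetostat calls against the background thus depends on the setting. With valemetostat the offset fit gave 13 lower (46.4%) and 4 higher (14.3%) members, against 19.4% and 18.9%. The medians over the members with the offset were -0.04 with tazemetostat and -0.12 with valemetostat (-0.06 and -0.12 without it). Over all tested genes the medians with the offset were -0.02 with each compound (0.00 and 0.01 without it). The members thus lay nearer to the median of all tested genes with the offset.

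**Figure D1:**
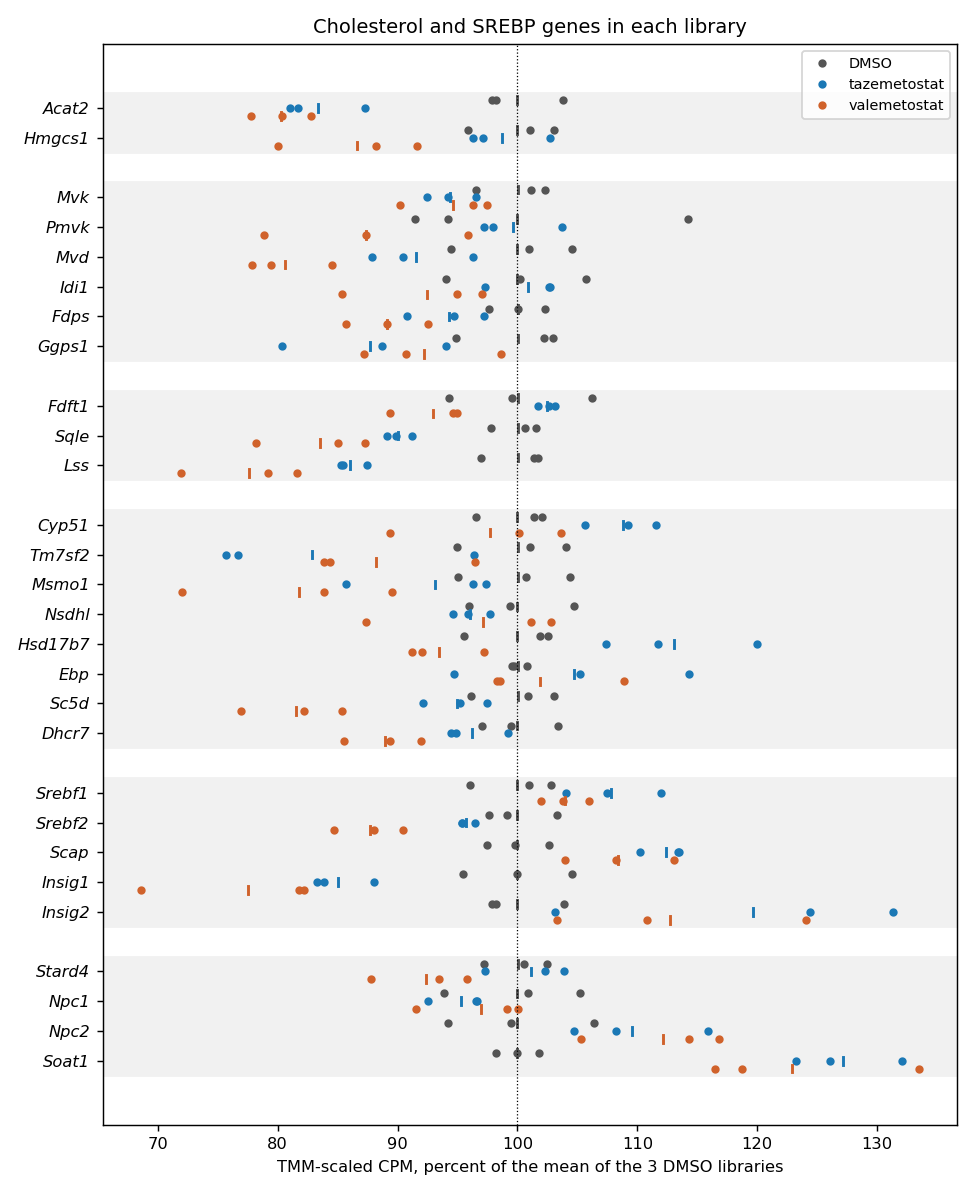
TMM-scaled CPM of the 28 genes in each of the 9 libraries, as percent of the mean of the 3 DMSO libraries (horizontal axis), by pathway step from top to bottom (shaded blocks). Points are libraries and ticks are group means; Lss, Insig1 and Mvd show all valemetostat libraries left of all DMSO libraries, and Soat1 shows all inhibitor libraries right of them.

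At the entry to the mevalonate pathway both genes fell with valemetostat and 1 of 2 fell with tazemetostat. Acat2, the cytosolic thiolase that joins acetyl-CoA units, was at 248, 249 and 263 CPM with DMSO, 207, 206 and 222 CPM with tazemetostat and 210, 204 and 197 CPM with valemetostat. No inhibitor library reached a DMSO library. It fell by 16.6% with tazemetostat (log2 change -0.26 ± 0.04, SE; edgeR adjusted p = 4.31e-05) and fell by 19.7% with valemetostat (-0.32 ± 0.04; adjusted p = 3.47e-06). Hmgcs1, the HMG-CoA synthase of the cytosol, gave 392, 422 and 414 CPM with DMSO, 394, 420 and 397 CPM with tazemetostat and 375, 361 and 327 CPM with valemetostat. The tazemetostat libraries lay within the DMSO range and the valemetostat libraries below it. It fell by 13.4% with valemetostat (-0.21 ± 0.05; edgeR adjusted p = 0.00129), while the tazemetostat log2 change of -0.02 had a 95% interval of -0.12 to 0.08.

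From mevalonate to isoprenoids, 2 of 6 genes fell with valemetostat and 0 with tazemetostat, and all 6 had a log2 change below 0 with valemetostat. Mvd, the diphosphomevalonate decarboxylase, stood at 120, 116 and 109 CPM with DMSO, 104, 101 and 111 CPM with tazemetostat and 91.5, 97.3 and 89.6 CPM with valemetostat. The valemetostat libraries lay below all others. The log2 change was -0.31 ± 0.05 with valemetostat (edgeR adjusted p = 3.82e-05) and -0.13 ± 0.05 with tazemetostat, which did not pass (adjusted p = 0.0547). Fdps, farnesyl diphosphate synthase, gave 288, 295 and 302 CPM with DMSO and 263, 273 and 253 CPM with valemetostat, without overlap. It fell by 10.9% with valemetostat (-0.17 ± 0.04; edgeR adjusted p = 0.00364). Its tazemetostat libraries, at 280, 268 and 287 CPM, also lay below all DMSO libraries, with a log2 change of -0.09 that did not pass (edgeR adjusted p = 0.129).

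The other genes of the isoprenoid step did not pass in either comparison. Log2 changes with valemetostat were -0.08 for Mvk (mevalonate kinase), -0.20 for Pmvk (phosphomevalonate kinase; edgeR adjusted p = 0.0534), -0.11 for Idi1 (isopentenyl diphosphate isomerase) and -0.12 for Ggps1, the geranylgeranyl diphosphate synthase of the branch toward prenylation. With tazemetostat they were -0.08, -0.01, 0.01 and -0.19. Ggps1 had the larger distance from DMSO with tazemetostat (21.9, 23.2 and 19.9 CPM against 25.4, 23.5 and 25.3 CPM), with no overlap of the libraries and an edgeR adjusted p of 0.0663.

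At squalene and its cyclisation, 2 of 3 genes fell in each comparison. Sqle, the squalene epoxidase and a rate-limiting enzyme of the sterol branch, was at 349, 362 and 359 CPM with DMSO, 318, 321 and 325 CPM with tazemetostat and 304, 311 and 279 CPM with valemetostat. The order DMSO, tazemetostat, valemetostat held without overlap. It fell by 9.95% with tazemetostat (-0.15 ± 0.04; edgeR adjusted p = 0.0082) and fell by 16.5% with valemetostat (-0.26 ± 0.04; adjusted p = 3.94e-05). Lss, the lanosterol synthase that closes the sterol rings, gave 178, 178 and 170 CPM with DMSO, 149, 150 and 153 CPM with tazemetostat and 139, 143 and 126 CPM with valemetostat. Here too no library of 1 group overlapped another group. Lss fell by 14% with tazemetostat (-0.22 ± 0.05; edgeR adjusted p = 0.000799) and fell by 22.4% with valemetostat (-0.37 ± 0.05; adjusted p = 1.15e-06). Fdft1, the squalene synthase, passed in neither (0.04 with tazemetostat and -0.10 with valemetostat).

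From lanosterol to cholesterol the compounds gave different sets of calls. With valemetostat 3 of 8 genes fell (Msmo1, Sc5d and Dhcr7) and 0 rose. With tazemetostat 2 rose (Cyp51 and Hsd17b7) and 0 fell. Sc5d, a sterol desaturase, was at 95.2, 99.9 and 102 CPM with DMSO, 91.2, 96.5 and 94.2 CPM with tazemetostat and 84.5, 81.4 and 76.2 CPM with valemetostat. All valemetostat libraries lay below all others. It fell by 18.5% with valemetostat (-0.29 ± 0.05; edgeR adjusted p = 6.74e-05). Msmo1, the methylsterol monooxygenase, gave 152, 161 and 167 CPM with DMSO and 144, 134 and 115 CPM with valemetostat (-0.29 ± 0.07; adjusted p = 0.00231), with the third valemetostat library the lowest. Dhcr7, a reductase of the last step, fell by 11.0% with valemetostat (adjusted p = 0.00778), and without the third valemetostat library its adjusted p was 0.0527.

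Cyp51, the lanosterol demethylase, was at 557, 585 and 589 CPM with DMSO, 610, 630 and 644 CPM with tazemetostat and 598, 578 and 516 CPM with valemetostat. Its tazemetostat libraries were above all others. The log2 change was 0.12 ± 0.05 with tazemetostat (edgeR adjusted p = 0.0491), a call lost in 9 of 18 alternatives, and -0.03 with valemetostat. Hsd17b7, the keto-reductase of the demethylation complex, gave 40.5, 40.7 and 37.9 CPM with DMSO, 44.4, 47.6 and 42.6 CPM with tazemetostat and 38.6, 36.5 and 36.2 CPM with valemetostat. It rose by 13.1% with tazemetostat (0.18 ± 0.06; edgeR adjusted p = 0.0314, lost in 5 of 18 alternatives). Tm7sf2 (a sterol reductase), Nsdhl (a sterol dehydrogenase) and Ebp (a sterol isomerase) passed in neither comparison. Tm7sf2 had the widest intervals, -0.52 to -0.01 with tazemetostat and -0.43 to 0.07 with valemetostat.

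Among SREBP and its sterol sensing genes, Insig1 and Insig2 stood on opposite sides of DMSO. Insig1, which retains SCAP and is itself a SREBP target, was at 126, 120 and 115 CPM with DMSO, 101, 106 and 100 CPM with tazemetostat and 98.2, 98.7 and 82.4 CPM with valemetostat. All groups were apart from one another. It fell by 15% with tazemetostat (-0.23 ± 0.06; edgeR adjusted p = 0.00278) and fell by 22.5% with valemetostat (-0.37 ± 0.06; adjusted p = 2.28e-05). Insig2, the second retention protein, gave 23.6, 25.1 and 23.7 CPM with DMSO, 30.0, 31.7 and 24.9 CPM with tazemetostat and 24.9, 26.8 and 30.0 CPM with valemetostat. Its inhibitor libraries overlapped the DMSO range. It rose with tazemetostat (0.26 ± 0.09; edgeR adjusted p = 0.0182), a call lost in 5 of 18 alternatives, and on log2(TPM + 1) the difference was -0.01. With valemetostat the log2 change was 0.17 (adjusted p = 0.119).

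Srebf2, which encodes SREBP2, was at 583, 608 and 574 CPM with DMSO, 568, 562 and 561 CPM with tazemetostat and 498, 518 and 532 CPM with valemetostat. The valemetostat libraries lay below all others. It fell by 12.3% with valemetostat (-0.19 ± 0.04; edgeR adjusted p = 0.000738) and its tazemetostat log2 change of -0.06 did not pass (adjusted p = 0.251). Srebf1, which encodes SREBP1, passed in neither comparison on counts (0.11 with tazemetostat, adjusted p = 0.0638, and 0.06 with valemetostat). On the TPM scale Srebf1 went from 61.8 ± 2.88 with DMSO to 50.5 ± 2.99 with valemetostat, and limma on log2(TPM + 1) gave -0.29 (adjusted p = 0.00658), so its direction depends on the scale. Scap, the sterol-sensing escort, gave 151, 144 and 147 CPM with DMSO, 163, 167 and 167 CPM with tazemetostat and 153, 160 and 167 CPM with valemetostat. All inhibitor libraries were above all DMSO libraries. It rose by 12.4% with tazemetostat (0.17 ± 0.05; edgeR adjusted p = 0.00435) and by 8.4% with valemetostat (0.12 ± 0.05; adjusted p = 0.0428). The valemetostat call was lost in 10 of 18 alternatives, and on log2(TPM + 1) the difference was -0.06.

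Of the 4 genes of sterol transport and storage, 2 rose in each comparison and 0 fell. Soat1, the acyltransferase that esterifies cholesterol for storage, was at 18.9, 19.2 and 18.5 CPM with DMSO, 24.9, 23.8 and 23.2 CPM with tazemetostat and 22.4, 22.0 and 25.2 CPM with valemetostat. No inhibitor library overlapped a DMSO library. It rose by 27.2% with tazemetostat (0.35 ± 0.08; edgeR adjusted p = 0.00103) and by 22.9% with valemetostat (0.30 ± 0.08; adjusted p = 0.00388), and neither passed on log2(TPM + 1) (adjusted p = 0.399 and 0.157). Npc2, a lysosomal carrier of cholesterol, gave 195, 173 and 182 CPM with DMSO, 199, 192 and 213 CPM with tazemetostat and 193, 214 and 210 CPM with valemetostat. The ranges overlapped. It rose by 9.51% with tazemetostat (edgeR adjusted p = 0.0472, lost in 8 of 18 alternatives) and by 12.1% with valemetostat (adjusted p = 0.013, lost in 3 of 18). Npc1, its membrane partner in the lysosome, and Stard4, a cytosolic sterol carrier, passed in neither, with log2 changes with valemetostat of -0.05 and -0.12.

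**Figure D2:**
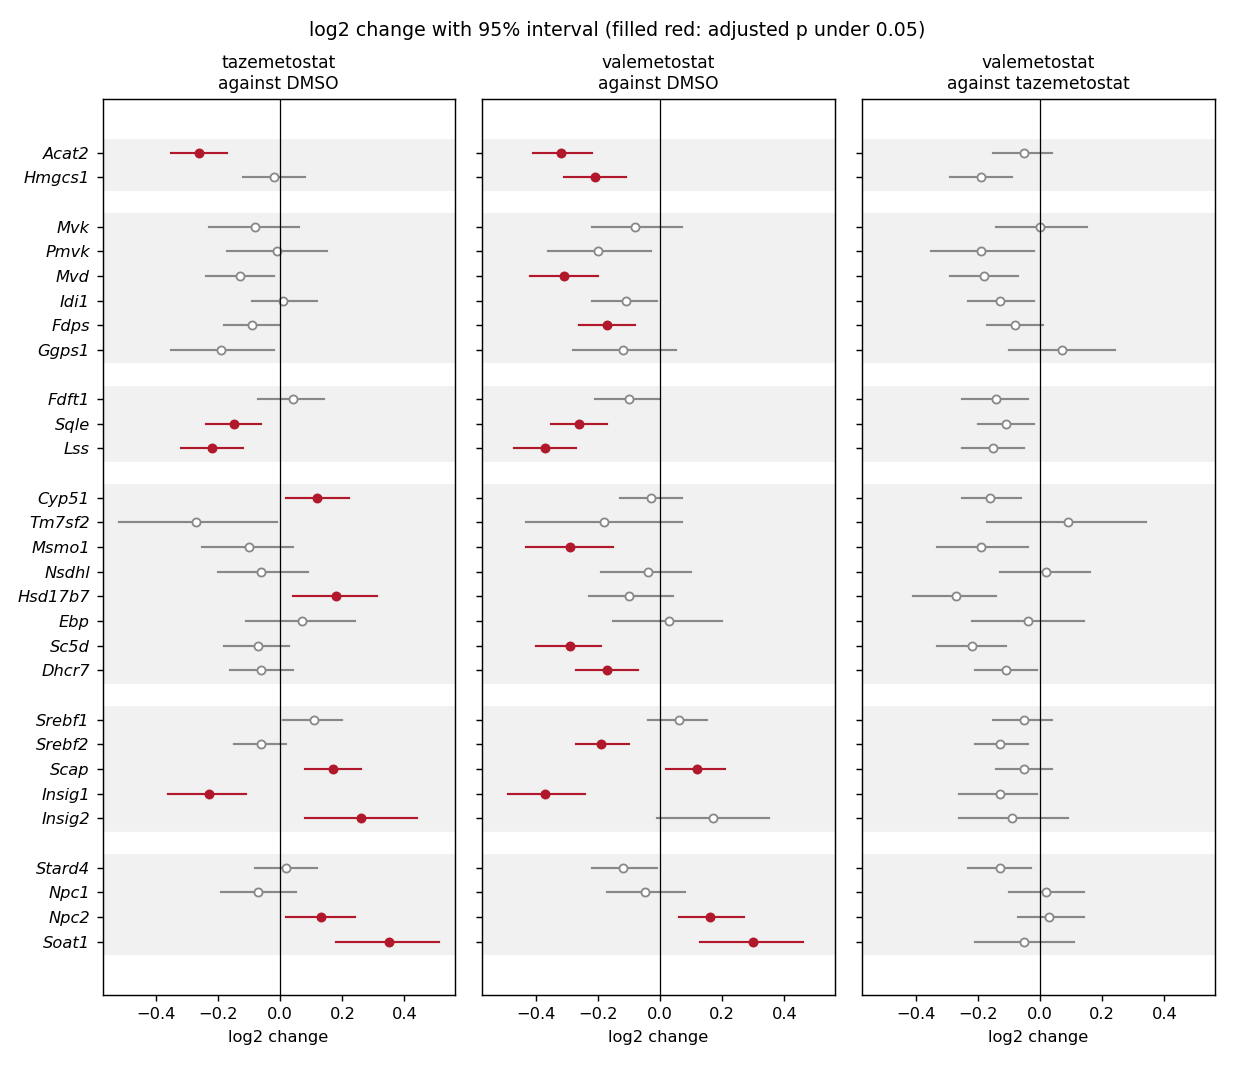
Log2 change of each gene (horizontal axis) with its 95% interval in the 3 comparisons, one panel each, by pathway step from top to bottom. Filled red points passed at an adjusted p under 0.05: 10 genes in the first panel, 14 in the second and 0 in the third.

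Summed over a step on the TPM scale, mean levels ran DMSO, tazemetostat, valemetostat from high to low in the first 5 steps, whose means were 86.4 to 95% of DMSO with tazemetostat and 79.4 to 84.1% with valemetostat. The entry step summed to 342 ± 11.7 TPM with DMSO, 299 ± 7.0 with tazemetostat and 271 ± 16.5 with valemetostat (SD, n = 3). The isoprenoid step summed to 881 ± 21.1, 802 ± 6.59 and 741 ± 36.3 TPM in the same order. The squalene step gave 279 ± 11.5, 241 ± 5.10 and 222 ± 11.7 TPM. In these 3 steps every inhibitor library lay below every DMSO library on the TPM scale. As summed CPM the isoprenoid step overlapped, with the third tazemetostat library at 1010 and the first DMSO library at 989.9. The lanosterol step gave 531 ± 26.5, 504 ± 11.2 and 447 ± 27.6 TPM, with tazemetostat libraries that overlapped the DMSO range. SREBP and sensing genes summed to 407 ± 15.9, 374 ± 15.6 and 342 ± 9.08 TPM, also with every inhibitor library below every DMSO library. As summed CPM their tazemetostat libraries lay within the DMSO range. Transport and storage genes summed to 140 ± 6.05, 140 ± 6.01 and 138 ± 0.0907 TPM. Over all 28 genes the sums were 2581 ± 85.5, 2361 ± 35.9 and 2160 ± 84.0 TPM, or 91.5% and 83.7% of DMSO. Part of this is not particular to the members. On log2(TPM + 1) the median difference from DMSO over all tested genes was -0.07 with each compound. Over the members it was -0.11 with tazemetostat and -0.27 with valemetostat. Summed TMM-scaled CPM gave 98.2% and 90.5%, and on that scale the lanosterol step was at 103% of DMSO with tazemetostat and the transport step at 106% and 104%, so both the size and, for these steps, the direction depend on the scale. These sums carry no test, since the members were proposed with results of these data known.

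**Figure D3:**
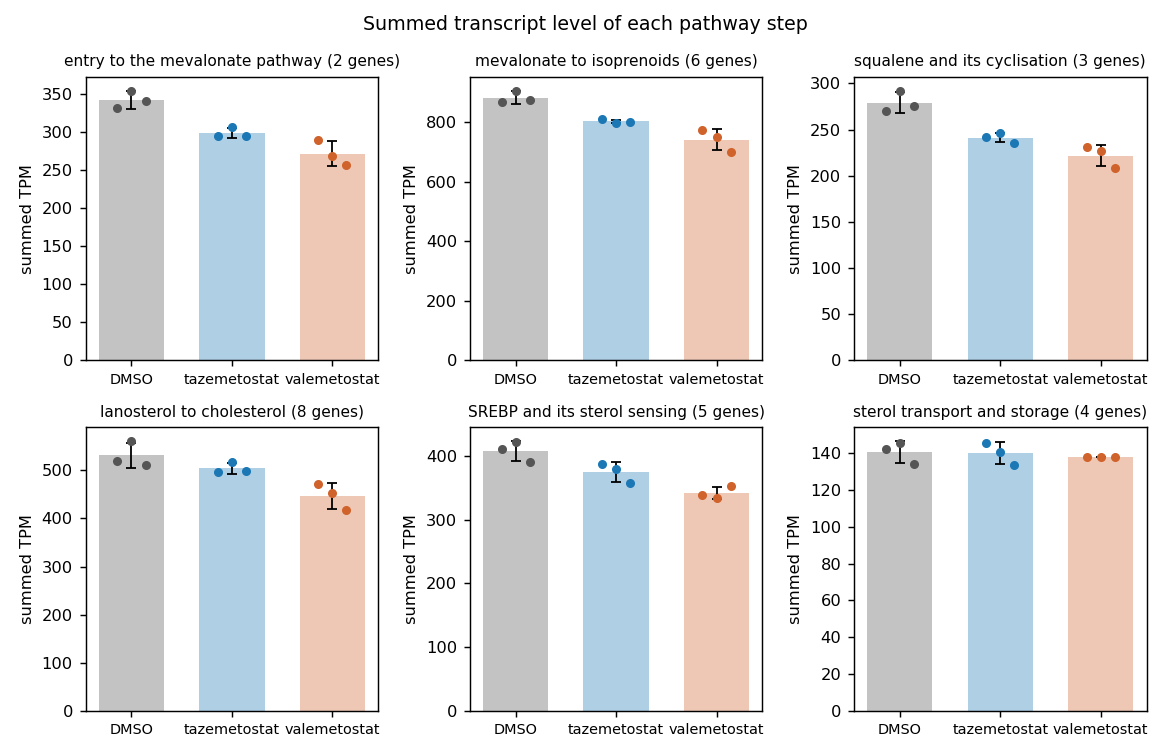
Summed TPM (vertical axis, from 0) of each pathway step in the 3 groups. On log2(TPM + 1) the median difference from DMSO over all tested genes was -0.07 with each compound, and the sums are not adjusted for it. Bars are means, error bars the SD of 3 libraries and points the libraries; the first 5 steps have means in the order DMSO, tazemetostat, valemetostat, and the transport and storage means lie between 138 and 140 TPM.

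The compounds were then compared with each other, as 1 pair. No member passed at an adjusted p under 0.05 in edgeR, 0 higher and 0 lower, where 0.0636% of all tested genes were higher and 0.254% lower with valemetostat. At an unadjusted p under 0.05, 15 of 28 members (53.6%) were lower with valemetostat and 0 higher, against 4.25% and 3.69% of all tested genes. These shares too were not matched for expression level. The log2 change was below 0 for 22 of 28 members and for 6292 of all 12580 tested genes, with medians of -0.11 and 0.00. DESeq2 called 3 members lower (10.7%, against 0.493% of all tested genes). EdgeR with no filter called 4 (14.3%, against 0.377%), and with the length and GC offset 4 (14.3%, against 0.517%).

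Hsd17b7 was the member with the smallest p, at -0.27 (95% interval -0.41 to -0.14; edgeR adjusted p = 0.0679). Its CPM ran from 36.2 to 38.6 with valemetostat and from 42.6 to 47.6 with tazemetostat. Sc5d followed at -0.22 (-0.33 to -0.11; adjusted p = 0.0704) and Hmgcs1 at -0.19 (-0.29 to -0.09; adjusted p = 0.125). In all 3 genes every valemetostat library lay below every tazemetostat library, and DESeq2 called all 3 (adjusted p = 0.0115, 0.0111 and 0.0267). Cyp51 (-0.16, interval -0.25 to -0.06), Mvd (-0.18, -0.29 to -0.07), Lss (-0.15, -0.25 to -0.05) and Srebf2 (-0.13, -0.21 to -0.04) had intervals wholly below 0 and adjusted p of 0.213 to 0.341.

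The intervals come from the same test as the unadjusted p, so they add no separate support. The 15 members with an interval wholly below 0 are the 15 counted above, and 0 lay wholly above. The other 8 of these 15 were Pmvk, Idi1, Fdft1, Sqle, Msmo1, Dhcr7, Insig1 and Stard4, with edgeR adjusted p of 0.424 to 0.567.

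For the remaining 13 members the interval of the difference included 0. Acat2 gave -0.05 (-0.15 to 0.04), Soat1 -0.05 (-0.21 to 0.11), Scap -0.05 (-0.14 to 0.04), Npc2 0.03 (-0.07 to 0.14) and Mvk 0.00 (-0.14 to 0.15). These intervals do not show that the compounds act alike on these genes, but they bound the difference.

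A single library weighed on this comparison. The median deviation of the members from their own means over all libraries was, on the log2 scale, 0.02, 0.07 and 0.09 for DMSO, 0.01, 0.03 and 0.04 for tazemetostat, and -0.05, -0.05 and -0.15 for valemetostat. The third valemetostat library was the lowest, while the same median over all genes was 0.00 to 0.01 in every library. Without it, 5 members in place of 15 were lower at an unadjusted p under 0.05 (4.12% of all tested genes), 22 were below 0 and the median was -0.08. Against DMSO, 10 members in place of 11 fell with valemetostat without that library, at a median of -0.08 in place of -0.12.

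**Figure D4:**
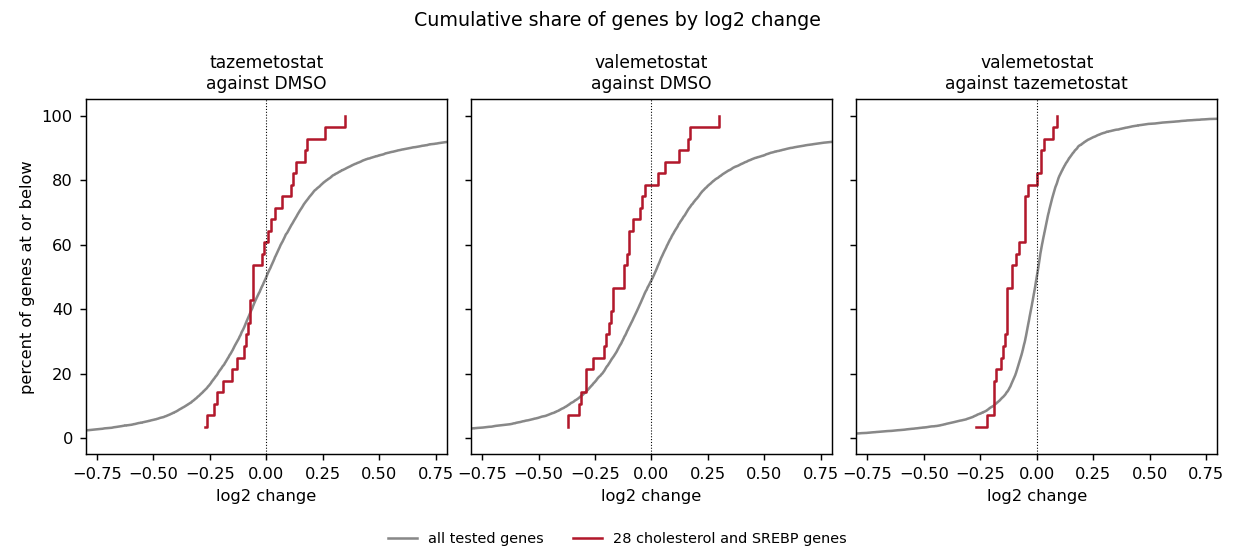
Cumulative percent of genes (vertical axis) at or below a log2 change (horizontal axis, shown from -0.8 to 0.8) for all 12580 tested genes (grey) and the 28 members (red) in the 3 comparisons. The red curve lies left of the grey one at its middle in both panels of valemetostat, with medians of -0.12 and -0.11, and close to it for tazemetostat against DMSO, at -0.06.

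Other genes of the pathway came from lists written by function. Of 13 tested genes of SREBP processing and sterol-regulated degradation, 3 fell and 0 rose in each comparison with DMSO. Of all tested genes, 18.2% fell and 19.9% rose with tazemetostat, and 18.7% fell and 20.5% rose with valemetostat. Mbtps1, the protease that makes the first cut in SREBP, passed in neither (-0.10 and -0.11). Mbtps2, which makes the second cut, fell by 11.2% with valemetostat (edgeR adjusted p = 0.0331), and its tazemetostat log2 change of -0.06 did not pass (adjusted p = 0.454). The difference between the compounds for Mbtps2 did not pass either (-0.11; adjusted p = 0.71).

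Among 13 tested fatty acid synthesis targets of SREBP1, 4 fell in each comparison, and 3 rose with tazemetostat and 1 with valemetostat. The shares of all tested genes were 18.2% lower and 19.9% higher with tazemetostat, and 18.7% and 20.5% with valemetostat. The change of greatest size in this list was upward. Me1, the cytosolic malic enzyme that supplies NADPH, was at 1.43, 0.986 and 1.51 CPM with DMSO, 28.1, 25.4 and 26.3 CPM with tazemetostat and 29.7, 26.5 and 26.9 CPM with valemetostat. It rose by 4.33 ± 0.12 and 4.38 ± 0.12 on the log2 scale (edgeR adjusted p = 1.71e-19 and 1.27e-19). Fasn, the fatty acid synthase, fell by 21.9% with tazemetostat and fell by 28.9% with valemetostat (-0.36 ± 0.05 and -0.49 ± 0.05; edgeR adjusted p = 1.98e-06 and 9.95e-09). Scd1, the stearoyl-CoA desaturase, was at 385, 416 and 392 CPM with DMSO, 328, 329 and 309 CPM with tazemetostat and 291, 276 and 252 CPM with valemetostat, with no overlap. It was lower with valemetostat than with tazemetostat (-0.24 ± 0.05; edgeR adjusted p = 0.0268), a call lost without any of 4 libraries (adjusted p = 0.157 to 0.254), with library totals (0.0546) and on log2(TPM + 1) (0.823).

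Of the 9 tested genes of LXR, the receptor of oxidised sterols, and its targets, 3 rose with tazemetostat and 4 with valemetostat, and 0 fell. Over all tested genes 19.9% and 20.5% rose, and 18.2% and 18.7% fell. Apoe, a lipid carrier, was at 53.5, 42.4 and 48.4 CPM with DMSO, 94.0, 94.8 and 99.5 CPM with tazemetostat and 117, 131 and 138 CPM with valemetostat, without overlap. It was higher with valemetostat than with tazemetostat (0.42 ± 0.07; edgeR adjusted p = 0.00759), a call lost on log2(TPM + 1) (0.411) and without the first tazemetostat (0.0781) or the second valemetostat library (0.0756). Abcg1, a sterol exporter, rose by 0.71 and 0.72 (log2) and did not differ beyond its interval between the compounds (0.00, -0.13 to 0.14).

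Lists of isoprenoid use and of other sterol transport had calls in both directions. Of 17 genes of prenylation, dolichol and coenzyme Q, tazemetostat gave 2 calls upward and 2 downward, and valemetostat 3 and 3. Of 20 genes of other sterol transport, esterification and hydrolysis, tazemetostat gave 6 upward and 5 downward, and valemetostat 7 and 4. Upward and downward calls made up 19.9% and 18.2% of all tested genes with tazemetostat, and 20.5% and 18.7% with valemetostat. No gene of either list was called between the compounds in edgeR.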

How the data were processed

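Poly(A) RNA was sequenced as read pairs, per the labels' protocols. The authors deposited whole-number counts per gene and log2 values that return TPM in whole hundredths, so the deposited log2 values are log2(TPM + 1). Per the submitters' processing notes, mm9 was the genome build. Aligner, counter, strand setting and gene models were not given in the sources used here. In GENCODE M21, exons of 11 members overlap another gene, 6 of them a tested one (Ggps1, Fdft1, Cyp51, Tm7sf2, Srebf1 and Npc1), so reads there may be shared, as with processed pseudogenes.

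Counts were tested with edgeR 4.0.16 in R 4.3.3: TMM scaling, filterByExpr (minimum count 10, total 15), 9 libraries in 1 fit, the robust quasi-likelihood F test, and Benjamini-Hochberg adjustment over 12580 genes. The code was tested on simulated data. Replicates differed beyond sampling noise (chi-square per degree of freedom 5.212 to 12.95). The alternatives used DESeq2 1.42.0, limma 3.58.1, other scalings and filters, a length and GC offset, a replicate block and each library left out. All 28 members are named, plus Mbtps1, Mbtps2 and, per list, up to 2 called genes per direction with the smallest adjusted p, where a result turns on them. Some genes named by this rule, and the list that holds them, are not reported here. Members, lists and tests were chosen with earlier results of these data known. Transcript lengths came from GENCODE M21.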

Additional observations from a re-analysis of the deposited data

How the results depend on the processing

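Each comparison was repeated under 18 alternatives. Of the 10 members called with tazemetostat, 4 (Acat2, Sqle, Lss and Insig1) kept their call in all 18, and of the 14 called with valemetostat 10 did, every lower call but that of Dhcr7. With tazemetostat the number of members called lower was 4, and 7 with library totals, 8 with limma-trend on log2(TPM + 1) and 8 with the length and GC offset. The number called higher was 6, and 3 with library totals, 0 with limma-trend, and 2 to 6 with a library left out (2 without the first tazemetostat library, 3 without the second, 3 without the third DMSO library). With valemetostat the number called higher was 3, and 0 with limma-trend and 1 to 3 with a library left out (1 without the second DMSO or the second valemetostat library). Between the compounds, 0 members were called lower, and 3 with DESeq2, 4 with no filter, 4 with the length and GC offset and 0 to 1 with a library left out. Over all genes, 32 were lower and 8 higher between the compounds, from 1 to 72 and from 0 to 21 over the alternatives other than left-out libraries, and from 7 to 61 and from 2 to 12 with a library left out. The lower count was 7 without the second valemetostat library, 8 without the first, and 9, 16 and 61 without the first, the second and the third tazemetostat library. The count of 15 members lower at an unadjusted p under 0.05, repeated after seeing the data, ran from 5 to 15 with a library left out. On log2(TPM + 1), Srebf1 with valemetostat reversed to -0.29 (adjusted p = 0.00658), Scap with valemetostat to -0.06 (0.496) and Insig2 with tazemetostat to -0.01 (0.958). As summed CPM, the step levels were 92.8, 97.3, 90.9, 103, 99.1 and 106% of DMSO with tazemetostat in pathway order, and with valemetostat the isoprenoid step was at 90.0%, lanosterol at 92.7%, SREBP genes at 92.4% and transport at 104%. The causes were not tested. Replicate numbers gave little sign of pairing the libraries, since same-numbered libraries correlated at -0.0397 to 0.0763. The best match in another group had the same number for DMSO 3, tazemetostat 2 and tazemetostat 3. It did not for DMSO 1, DMSO 2 and tazemetostat 1. With the replicate block, 4 members were lower and 4 higher with tazemetostat, 12 lower and 2 higher with valemetostat, and 0 and 0 between the compounds. With 3 libraries a group, differences of a few percent were not detectable, and Tm7sf2, a gene of low level, had the widest intervals.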
